A study of Mus musculus with 30 samples.

Results

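Enteric neurons and enteric glia were followed through 8 marker genes in 30 RNA-seq libraries of mouse colon. The members were every gene of the 46078 in the merged count table whose name was S100b, Sox10, Ngfr, Elavl4, Uchl1, Ret, Gfap or Vip, and each name matched 1 gene. All mice were wild-type C57BL/6J, stated to be 5 to 10 weeks old at the start. AOM (azoxymethane, a colon carcinogen) was injected i.p. once at 10 mg/kg, followed by 3 cycles of 2.5% DSS (dextran sulfate sodium, which damages the colon epithelium) in the drinking water. Female and male mice were killed 9 weeks or 15 weeks after AOM, and female and male vehicle mice at 9 weeks, which gave 6 groups of 5 libraries. There was no vehicle group at 15 weeks, so at that time treatment and time after injection cannot be told apart, and both treated times were read against the same vehicle libraries. RNA came from a scrape of the epithelial layer, so the nerve plexuses of the colon wall were not the tissue aimed at.

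The enteric nervous system lies in the wall of the gut as linked ganglia of neurons and glia, one network between the muscle layers and another in the submucosa. It arises from neural crest cells that colonise the gut and depend on the receptor tyrosine kinase Ret and its ligand Gdnf. Enteric glia carry the calcium-binding protein S100b, the transcription factor Sox10, the filament protein Gfap and the neurotrophin receptor Ngfr (p75). Neurons carry the RNA-binding protein Elavl4 (HuD), the deubiquitinase Uchl1 (PGP9.5), Ret and, in secretomotor and inhibitory motor neurons, the peptide Vip. Several of these are not exclusive to the nervous system, since Ret, Uchl1 and Ngfr also occur in other cells.

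The genes lie apart in the GRCm38 genome, apart from 2 pairs that share a chromosome. S100b (chr10:76253853-76261159, plus strand) and Vip (chr10:5639218-5647614, plus strand) share chromosome 10. Ngfr (chr11:95568818-95587735, minus strand) and Gfap (chr11:102887336-102900912, minus strand) share chromosome 11. Sox10 (chr15:79154913-79164490), Elavl4 (chr4:110203722-110351909) and Ret (chr6:118151748-118197744) are on the minus strand and Uchl1 (chr5:66676091-66687234) is on the plus strand. S100b overlaps Dip2a on the opposite strand, which had 66483 counts in all, and the strand setting used in counting is not given in the sources used here, so S100b counts are uncertain in that respect. Uchl1 and Gfap each overlap a non-coding gene on the opposite strand, with 1 and 4 counts in all, respectively.

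RefSeq promoter entries (GRCm38.p6) were found for 6 of the 8 members, S100b, Ngfr, Elavl4, Uchl1, Gfap and Vip. The 250 bases before the start were searched on both strands for 2 forms of the short core that SOX factors such as Sox10 bind, ACAAAG and ACAAT, and for the E-box CAGCTG. These letters occurred in 16.5%, 27.7% and 13.0%, respectively, of 32851 mouse promoter windows of the same length. The promoters of the neuronal peptide Vip and the glial marker S100b are shown as examples of a neuronal and a glial gene. Both genes stood highest in the same library, but so did 7 of the 8 members in all, as described below. Capitals mark a match.
Vip promoter, chr10:5638968-5639217, plus strand: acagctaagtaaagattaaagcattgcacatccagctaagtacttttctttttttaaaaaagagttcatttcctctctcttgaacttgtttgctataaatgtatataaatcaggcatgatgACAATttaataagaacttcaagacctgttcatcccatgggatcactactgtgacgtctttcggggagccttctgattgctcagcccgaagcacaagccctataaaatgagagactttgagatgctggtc
S100b promoter, chr10:76253586-76253835, plus strand: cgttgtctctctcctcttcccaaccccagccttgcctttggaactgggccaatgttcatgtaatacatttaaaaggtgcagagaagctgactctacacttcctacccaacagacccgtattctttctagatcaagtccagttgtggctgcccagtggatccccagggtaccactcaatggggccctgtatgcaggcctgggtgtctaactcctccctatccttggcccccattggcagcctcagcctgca
The Vip window held ACAAT once, starting 129 bases before the start site, and the S100b window held none of the 3. The Ngfr window held CAGCTG at -25, and the Uchl1 and Gfap windows held none. Each Elavl4 entry held 1 match, which was ACAAT at -146 or -212 or CAGCTG at -46 or -62. Such a match is a description of letters and was not linked to any measured binding.

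Libraries held 9265804 to 30806392 counts on genes. Levels are given as counts-per-million values (CPM), where the library size was first scaled by TMM, a factor that corrects for composition. A library with 3 counts of a gene, taken as the floor, stood at 0.0974 to 0.324 CPM. Floors cover counting error only. The paper calls its level of duplicate reads high, and duplicates were not removed. A few counts of a gene therefore need not stand for as many RNA molecules. The scrape was mainly epithelium by its markers, with the summed level of 8 epithelial genes between 10380 and 43788 CPM. One library stood apart. Male vehicle replicate 1 had 5990 CPM summed over 10 smooth muscle genes (Myh11, Acta2, Des and others), whereas the other 29 libraries had 57.0 to 299.3 CPM. Its sum of 10 fibroblast genes was 1106 CPM, against at most 425.0 CPM elsewhere. This library held 3.82% of all counts on genes, and values without it are given beside the results that its removal moved most.

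Most of the 8 genes were near the limit of detection. S100b had 78 counts in all and Sox10 71, each in 13 of 30 libraries, and Gfap had 77 counts in 20 libraries. Elavl4 had 131 counts in 25 libraries, Ngfr 213 in 26 and Vip 509 in 19. Uchl1, with 857 counts, and Ret, with 3811, were counted in all 30 libraries. Sox10 and S100b are defining glial markers, and 17 of 30 libraries had no count of each. Per length, in transcripts-per-million values (TPM, as deposited from StringTie), Uchl1 had the highest mean level over all libraries, 0.640 ± 0.645 (SD, n = 30), followed by Ret at 0.427 ± 0.378 and Vip at 0.282 ± 1.05, and these spreads overlap widely. The TPM of Ngfr was listed at 0 in 18 libraries that had counts, Elavl4 in 14 and Sox10 in 11, so comparisons below use counts.

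The neuronal and glial genes other than Ret were highest in male vehicle replicate 1, the library rich in smooth muscle genes. This held for 7 of the 8 members. Of all 28034 genes with a count, 15.2% were highest there. Vip had 316 of its 509 counts in this library (62.1%), Sox10 36 of 71 (50.7%) and S100b 36 of 78 (46.2%). Gfap had 26.0% of its counts there, Ngfr 23.0%, Uchl1 16.7% and Elavl4 15.3%. Vip stood at 10.3 CPM there against 2.07 CPM in the next library, female 9-week replicate 3, which had the second highest smooth muscle sum, 299.3 CPM. Ret was the exception, at 2.99 CPM there, rank 17 of 30, with 2.41% of its counts.

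**Figure D1:**
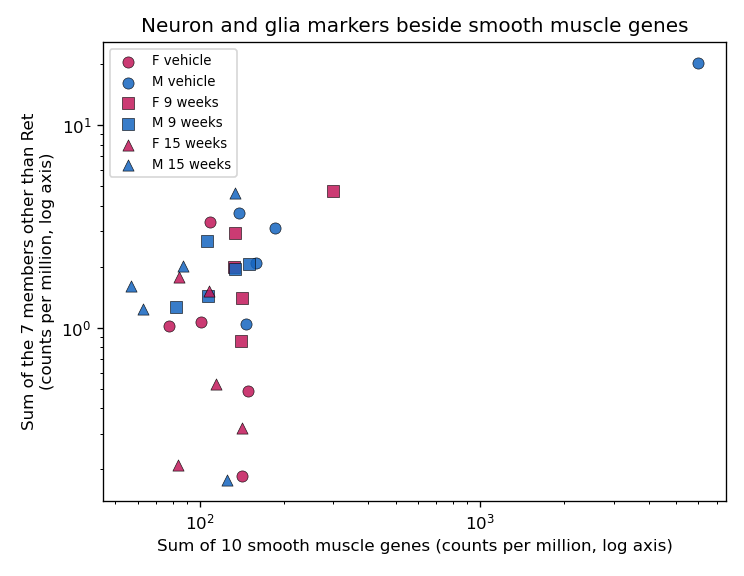
Summed level of the 7 members other than Ret (vertical axis, CPM, log axis) against the summed level of 10 smooth muscle genes (horizontal axis, CPM, log axis), with 1 point per library and symbols and colours for the 6 groups. Male vehicle replicate 1 lies alone at the upper right, at 5990 CPM of smooth muscle genes, and the other libraries lie between 57.0 and 299.3 CPM.

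Ret, the receptor of the GDNF family, was the 1 member called with the sexes averaged, higher at 9 weeks. In female vehicle libraries its level was 2.04, 3.73, 2.22, 4.51 and 2.99 CPM in replicates 1 to 5, and in male vehicle libraries 2.99, 1.28, 2.17, 3.01 and 1.61 CPM. At 9 weeks of AOM/DSS it was 9.35, 7.96, 5.79, 12.6 and 2.04 CPM in females, and 10.1, 10.3, 9.80, 11.7 and 7.60 CPM in males. All 5 male 9-week libraries lay above all male vehicle libraries, and 4 of 5 female 9-week libraries lay above all female vehicle libraries, the exception being female 9-week replicate 5. At 15 weeks Ret was 2.30, 2.78, 4.09, 2.28 and 3.95 CPM in females and 2.49, 3.18, 1.17, 1.65 and 10.7 CPM in males. The female 15-week libraries lay within the range of the female vehicle libraries. Of the male 15-week libraries, replicate 3 lay below the lowest male vehicle library, replicate 5 lay in the 9-week range and the other 3 lay around the male vehicle values.

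**Figure D2:**
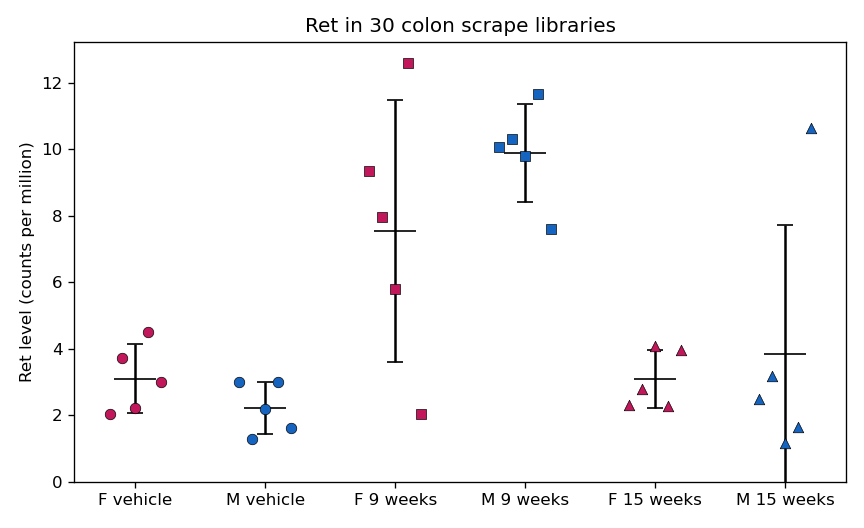
Ret level in CPM (vertical axis, starting at 0) in the 30 libraries by group, where points are libraries in replicate order and bars are the mean ± SD of 5 libraries. The male 9-week libraries lie between 7.60 and 11.7 CPM, above every vehicle library, and female 9-week replicate 5 and male 15-week replicate 5 lie apart from their groups.

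By group mean, Ret ordered as male 9-week (9.89 ± 1.47 CPM, SD, n = 5), female 9-week (7.55 ± 3.94), male 15-week (3.83 ± 3.89), female vehicle (3.10 ± 1.03), female 15-week (3.08 ± 0.88) and male vehicle (2.21 ± 0.79). Each neighbouring pair in this order overlapped. With the sexes averaged, Ret rose 3.30-fold at 9 weeks (log2 fold change 1.72, SE 0.32, edgeR quasi-likelihood test, Benjamini-Hochberg adjusted p = 0.000355). A gene was called at an adjusted p under 0.05 with a log2 fold change beyond 0.4. Ret was called with each of the 20 libraries left out in turn, with a log2 fold change of 1.59 to 1.83. Of the 5 members tested, 1, Ret, was called in this comparison, in which 12.0% of the 16261 genes tested were called, 8.05% as higher. The other 3 members, S100b, Sox10 and Gfap, had too few counts to enter the test.

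Within males Ret rose 4.45-fold at 9 weeks (log2 fold change 2.15, SE 0.46, edgeR adjusted p = 0.00324, in a comparison where 5.26% of genes were called higher), and 2.29 on the log2 scale without male vehicle replicate 1 (adjusted p = 0.00565). Of all genes tested, 5.55% had male 9-week libraries wholly above the male vehicle libraries, as Ret did. Within females the log2 fold change was 1.29 (SE 0.45), which was not called by edgeR (adjusted p = 0.106) but was called by DESeq2 (adjusted p = 0.0495). Leaving out female 9-week replicate 5 gave 1.51 (edgeR adjusted p = 0.0244). In both female groups the mean FPKM of Ret was below 1, the minimum that the study also set. The difference between the male and female responses was 0.87 on the log2 scale (SE 0.62, edgeR adjusted p = 0.766), with a 95% interval of -0.41 to 2.15, so no difference between the sexes was shown.

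At 15 weeks Ret did not differ from vehicle by the test. The log2 fold change was 0.40 with the sexes averaged (edgeR adjusted p = 0.382), 0.80 in males (adjusted p = 0.222) and -0.0049 in females (adjusted p = 0.997). The male value rested on replicate 5, and without it was -0.042. From 9 to 15 weeks of AOM/DSS Ret fell by 1.32 on the log2 scale with the sexes averaged (SE 0.31, edgeR adjusted p = 0.0213), where 4.32% of all genes were called, 3.83% as lower. This call was lost without female 9-week replicate 4 (log2 fold change -1.19, adjusted p = 0.0563) and with the smooth muscle level as a covariate (-1.14, adjusted p = 0.145).

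Genes of neutrophils, and less sharply of other cell types, had their highest median level at 9 weeks, as Ret did. The B cell, fibroblast and endothelial medians were lower at 15 weeks than in vehicle, unlike those of neutrophil and macrophage genes. The summed level of S100a8, S100a9, Csf3r and Cxcr2, calgranulins and receptors of neutrophils, was at most 3.32 CPM in the vehicle libraries (median 0.248 CPM). It was 0.430 to 107.1 CPM at 9 weeks (median 20.5 CPM) and 0.534 to 15.2 CPM at 15 weeks (median 1.67 CPM). All 4 of 4 were called higher at 9 weeks and all 4 were called lower at 15 than at 9 weeks, with the sexes averaged. Of all genes, 8.05% were called higher in the former comparison and 3.83% lower in the latter. Female 9-week replicate 5, the treated library with Ret at the vehicle level, had the lowest sum of the 9-week libraries, 0.430 CPM. Male 15-week replicate 5, with Ret at the 9-week level, had the highest sum of the 15-week libraries, 15.2 CPM. Female 9-week replicate 4, highest in Ret, was also highest in the neutrophil sum at 107.1 CPM. The medians of other summed lists in vehicle, 9-week and 15-week libraries were 11.9, 31.0 and 12.6 CPM for 4 macrophage genes, 15.7, 35.9 and 13.2 CPM for 4 B cell genes, 91.3, 168.6 and 45.6 CPM for 10 fibroblast genes and 26.1, 35.1 and 13.1 CPM for 6 endothelial genes. At 9 weeks 1 of the 4 macrophage genes was called higher, and edgeR called 0 of 4 B cell, 0 of 9 fibroblast and 0 of 6 endothelial genes tested, with 3, 0 and 0 at an unadjusted p under 0.05. With 12.0% of all genes called in this comparison, such counts in short lists are near the background and say little about these cell types. Female 9-week replicate 5 was also the lowest 9-week library in these 4 sums (11.4 CPM for macrophage, 6.50 for B cell, 31.7 for fibroblast and 13.7 for endothelial genes). Male 15-week replicate 5 was the highest 15-week library in 3 of them (28.5 CPM for macrophage, 120.2 for fibroblast and 32.2 for endothelial genes) and had 7.88 CPM of B cell genes. The part of these cell types in the Ret values was not tested, and in bulk tissue more cells of a type and more RNA per cell cannot be told apart.

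**Figure D3:**
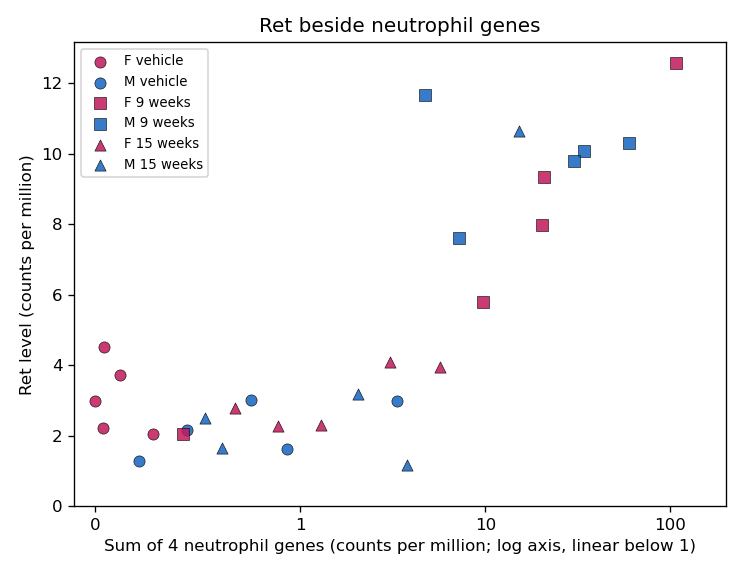
Ret level in CPM (vertical axis, starting at 0) against the summed level of 4 neutrophil genes in CPM (horizontal axis, log axis, linear below 1), with 1 point per library and symbols and colours for the 6 groups. The library of female 9-week mice at 0.430 CPM of neutrophil genes lies among the vehicle libraries, and the male 15-week library at 15.2 CPM lies among the 9-week libraries.

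The genes whose levels followed Ret most closely were Mab21l3 and Fst, the activin antagonist follistatin, both with a Spearman rho of 0.848 over 30 libraries. These values are descriptive, and the libraries share groups and treatment. The rho of Ret was -0.062 with Vip, 0.335 with Uchl1, 0.363 with Ngfr and -0.214 with Elavl4. That among Vip, Uchl1 and Elavl4 was 0.398 to 0.489, and that of Ngfr with these was 0.264 (Elavl4) to 0.596 (Uchl1). The difference between these values was not tested.

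Ret acts with GDNF-family ligands and co-receptors. Of 8 such genes 4 could be tested, and 0 of these were called at 9 weeks with the sexes averaged by edgeR, with 0 at an unadjusted p under 0.05. Since 12.0% of all genes were called in this comparison, 0 of 4 is near the background and says little about these genes. Their median log2 fold change was -0.11, and 0.042 without male vehicle replicate 1, against -0.024 over all genes. Those with the lowest p at 9 weeks did not pass, with Gfra1, the co-receptor for Gdnf, at -1.14 (adjusted p = 0.184) and Gfra2, the co-receptor for neurturin, at -0.17 (adjusted p = 0.901). These were -0.78 for Gfra1 and 0.23 for Gfra2 without male vehicle replicate 1. The ligand Gdnf had 81 counts in the 10 vehicle libraries, 45 at 9 weeks and 21 at 15 weeks. Gfra1 fell at 15 weeks with the sexes averaged (log2 fold change -2.29, SE 0.62, edgeR adjusted p = 0.0147, and -1.93 with adjusted p = 0.0391 without male vehicle replicate 1), 1 of the 4 tested, and 11.3% of all genes were called in that comparison, 7.02% as lower. Gfra1 and Gdnf, like 5 of the 8 genes of this list, were highest in male vehicle replicate 1, at 2.57 and 1.72 CPM.

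Vip, the vasoactive intestinal peptide of secretomotor neurons, was lower in treated than in vehicle males by the test, but the call depended on 1 library. In male vehicle libraries Vip was 10.3, 0.257, 0.0749, 0.967 and 0.336 CPM, and in male 9-week libraries 0.0354, 0.0437, 0, 0 and 0.139 CPM. The male 9-week values of 4 libraries lay below all male vehicle values, and the fifth lay within them. The fitted log2 fold change was -5.65 (SE 1.5, edgeR adjusted p = 0.0166), in a comparison where 9.03% of genes were called, 3.77% as lower. Without male vehicle replicate 1 it was -3.12 and not called (adjusted p = 0.182), and with the smooth muscle level as a covariate it was -2.17 (adjusted p = 0.216). Smooth muscle genes moved in the same way, with 8 of 10 called lower in males at 9 weeks with all libraries and 0 of 10 without that library. The genes most like Vip over the 30 libraries were Des (rho 0.720), which is in the smooth muscle list, and Synm (rho 0.713).

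In females the direction of Vip was the opposite, without passing the test. Vip was 0.0704, 0, 0, 0.0442 and 0 CPM in female vehicle libraries and 0.338, 0.474, 2.07, 0 and 0.215 CPM in female 9-week libraries. Here 4 of 5 female 9-week libraries lay above all female vehicle libraries (log2 fold change 4.34, SE 1.66, edgeR adjusted p = 0.153). In this comparison 4.05% of all genes were called. The difference between the male and female responses was -9.99 on the log2 scale, with an edgeR p of 0.000109 before and 0.314 after adjustment over all genes, and an adjusted p of 0.0330 in DESeq2. Without male vehicle replicate 1 it was -7.46 (edgeR adjusted p = 0.9997).

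Vehicle males had more Vip than vehicle females in every library, since the lowest male value, 0.0749 CPM, lay above the highest female value, 0.0704 CPM, although both stood for 2 counts. Of all genes, 0.996% had male vehicle libraries wholly above the female ones. The fitted difference was 6.26 on the log2 scale (SE 1.64), which edgeR did not call (adjusted p = 0.0675, where 0.252% of all genes were called) and DESeq2 called (adjusted p = 0.0101). Without male vehicle replicate 1 it was 3.73 (edgeR adjusted p = 0.446). The edgeR call was gained without female vehicle replicate 1 (adjusted p = 0.0245), male vehicle replicate 3 (0.0330) or male vehicle replicate 4 (0.0349).

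At 15 weeks Vip was 0, 0.0525, 0.241, 0.107 and 0.228 CPM in females and 0, 1.67, 0, 0 and 0 CPM in males. The male group thus held all of its 41 counts in replicate 2. The male log2 fold change against vehicle was -2.76 (edgeR adjusted p = 0.122), and -0.24 without male vehicle replicate 1 (adjusted p = 0.921). Without male 15-week replicate 2 Vip was called lower (edgeR adjusted p = 0.00843), and the remaining 4 male 15-week libraries had no count. Vipr1, the receptor for Vip that epithelial cells carry, was far more abundant, at 219 to 436 CPM over the 30 libraries. Of the 3 receptor genes tested in this list, edgeR called 0 at 9 weeks with the sexes averaged, with 0 at an unadjusted p under 0.05, and the lowest p values were those of Vipr1 (log2 fold change -0.18, adjusted p = 0.184) and Vipr2 (-0.29, adjusted p = 0.534).

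**Figure D4:**
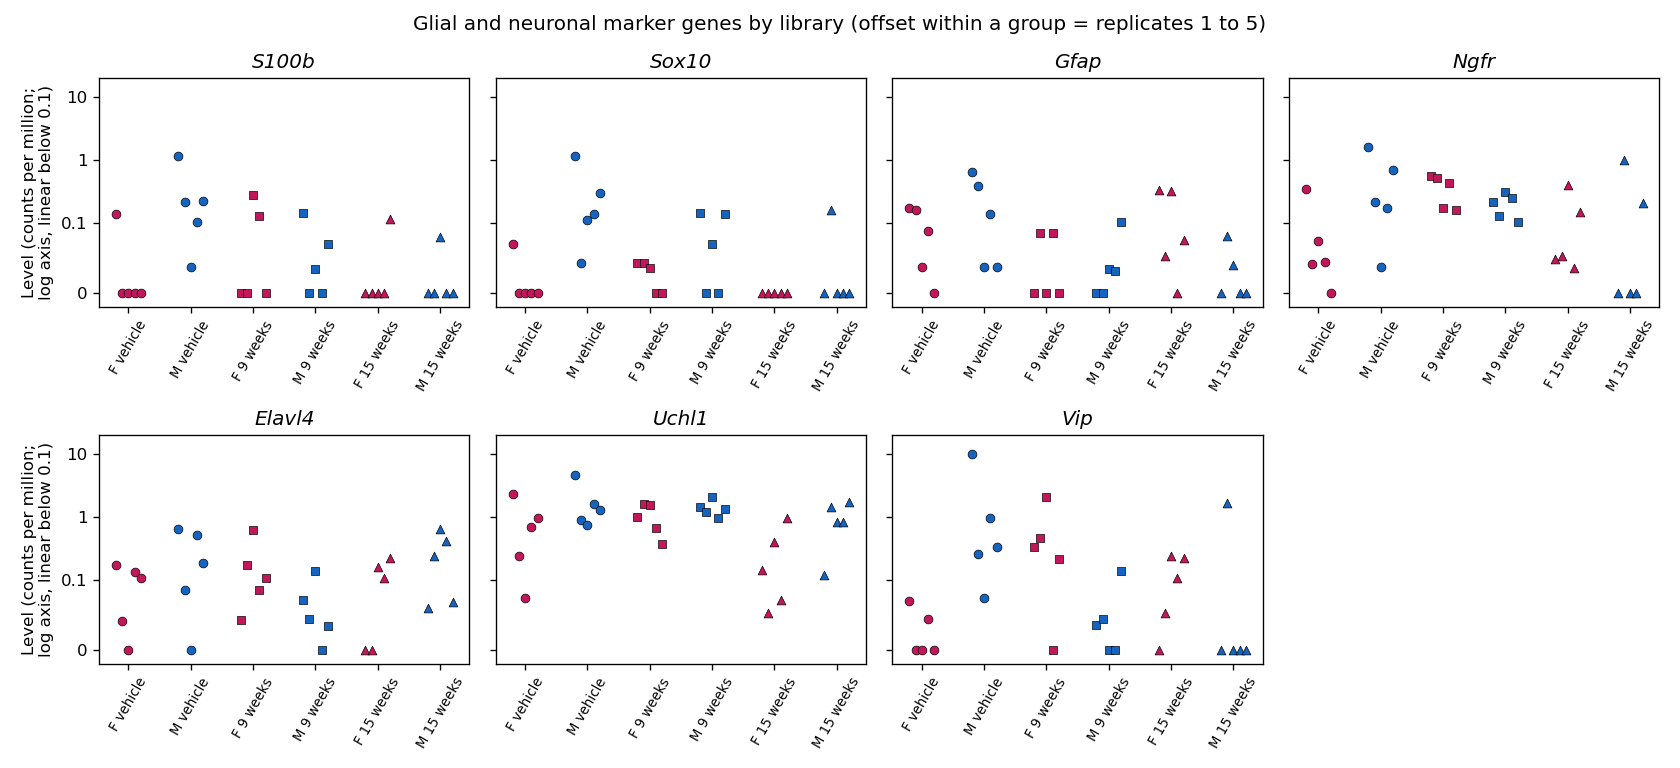
Levels in CPM (vertical axis, log axis, linear below 0.1) of the 7 members other than Ret in the 30 libraries, in panels by gene and by group, with replicates 1 to 5 from left to right. The highest point of each panel is male vehicle replicate 1, and many points of S100b, Sox10, Gfap and Vip lie at 0.

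Uchl1, a deubiquitinase abundant in neurons, did not pass the test at 9 or 15 weeks. It was 2.32, 0.243, 0.0740, 0.707 and 0.960 CPM in female vehicle libraries and 4.65, 0.899, 0.749, 1.62 and 1.31 CPM in male vehicle libraries. At 15 weeks it was 0.144, 0.0525, 0.401, 0.0713 and 0.987 CPM in females and 0.119, 1.43, 0.845, 0.827 and 1.75 CPM in males. The groups overlapped in both sexes. The log2 fold change at 15 weeks with the sexes averaged was -1.11 (SE 0.51, edgeR adjusted p = 0.126), and with 1 library left out it ranged from -1.59 without female 15-week replicate 5, when it was called (adjusted p = 0.0351), to -0.65 without female vehicle replicate 1 (adjusted p = 0.385). It was -0.76 without male vehicle replicate 1. At 9 weeks Uchl1 ranged from 0.376 to 2.08 CPM over both sexes (log2 fold change -0.045, adjusted p = 0.965, and 0.30 without male vehicle replicate 1). The genes most like Uchl1 were the transcription factor Foxq1 (rho 0.864) and the ephrin receptor Ephb6 (rho 0.855) over 30 libraries.

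Ngfr, the p75 neurotrophin receptor of glia, was counted in all 10 of the 9-week libraries, at 0.104 to 0.550 CPM. In vehicle libraries it ranged from 0 to 1.59 CPM and at 15 weeks from 0 to 1.02 CPM. It was not called in any comparison with all libraries, and its log2 fold change at 9 weeks was 1.62 in females (SE 0.99, edgeR adjusted p = 0.440) and -1.42 in males (SE 0.90, adjusted p = 0.341). Without male vehicle replicate 1 the male value was -0.47. At 15 weeks the male value was -1.07 (adjusted p = 0.436), and without male 15-week replicate 2, which held 25 of the group's 31 counts, it was -3.02 and called (adjusted p = 0.0469). It was -0.12 without male vehicle replicate 1 (adjusted p = 0.952). The genes most like Ngfr were Rcsd1 (rho 0.835) and Abcg3 (rho 0.833) over 30 libraries. Of the 4 neurotrophin ligands, receptors and co-receptors tested of 10, 1 was called at 9 weeks with the sexes averaged, where 12.0% of all genes were called. This was Sorcs2, a sorting receptor that pairs with Ngfr, which fell in females (log2 fold change -0.68, SE 0.14, adjusted p = 0.00478) and in males (-0.66, SE 0.14, adjusted p = 0.00351).

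Elavl4, an RNA-binding protein of neurons, ranged from 0 to 0.651 CPM in vehicle libraries, from 0 to 0.632 CPM at 9 weeks and from 0 to 0.644 CPM at 15 weeks. The groups overlapped throughout. Its log2 fold change at 9 weeks was 1.22 in females (SE 0.96, edgeR adjusted p = 0.583) and -2.26 in males (SE 0.95, adjusted p = 0.129). The female value was 0.17 without female 9-week replicate 3 (adjusted p = 0.974), which had 18 Elavl4 counts, and the male value was -1.73 without male vehicle replicate 1 (adjusted p = 0.346). At 15 weeks it was 0.21 in females (adjusted p = 0.952) and -0.039 in males (adjusted p = 0.980), the latter 0.49 without male vehicle replicate 1. The genes most like Elavl4 were Pik3ca (rho 0.666) and Mnat1 (rho 0.665) over 30 libraries.

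**Figure D5:**
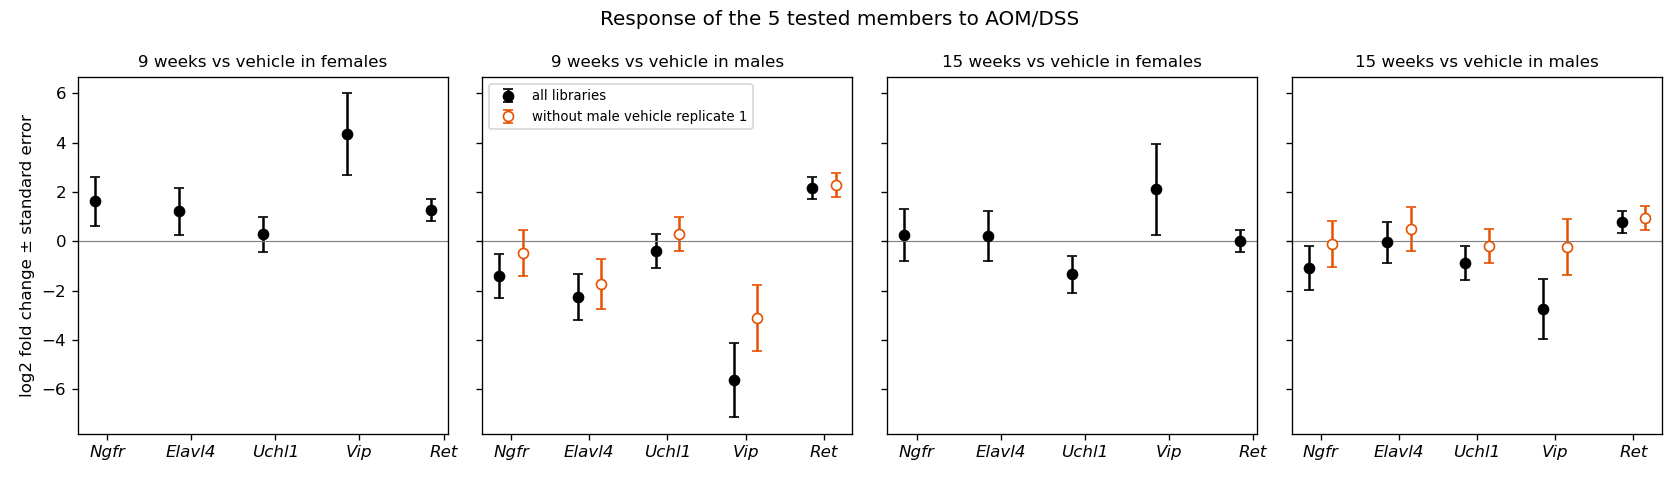
Log2 fold changes against vehicle (vertical axis, points with bars of 1 standard error) of the 5 tested members in females and males at 9 and 15 weeks. Filled points use all libraries. Open points, in the panels of males only, leave out male vehicle replicate 1, which moves Vip in males at 9 weeks from -5.65 to -3.12 and Ret from 2.15 to 2.29.

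The glial genes S100b, Sox10 and Gfap were below the filter, so their counts, or the libraries with a count, are given. Female vehicle libraries had 4, 0, 0, 0 and 0 counts of S100b and 2, 0, 0, 0 and 0 of Sox10, and male vehicle libraries 36, 5, 1, 3 and 6 of S100b and 36, 1, 3, 4 and 8 of Sox10. At 9 weeks S100b had 0, 0, 8, 3 and 0 counts in females and 4, 0, 1, 0 and 2 in males. Sox10 had 1, 1, 1, 0 and 0 counts in females and 4, 0, 2, 0 and 4 in males then. All 5 male vehicle libraries thus had both genes and only 1 female vehicle library did. Female vehicle replicate 5 was the shallowest library, with 9265804 counts on genes and a floor of 0.324 CPM. Both genes stood at 0.0374 to 0.299 CPM in male vehicle replicates 2 to 5, so 0 counts in that female library say little. The share of all genes with such a split is not given here. At 15 weeks S100b was counted in 2 of 10 libraries and Sox10 in 1 of 10, with 0 counts of Sox10 in all 5 female libraries. When every gene with a count was tested, the log2 difference between vehicle males and vehicle females was 4.01 for Sox10 (SE 1.21, edgeR adjusted p = 0.108) and 3.20 for S100b (SE 1.22, edgeR adjusted p = 0.205), neither of which passed the adjustment over 28034 genes. These were 2.81 without male vehicle replicate 1 for Sox10 (edgeR adjusted p = 0.591) and 1.97 for S100b (adjusted p = 0.684). Stromal genes also differed in level between the vehicle groups. Without that library the median sum was 125.7 CPM in males and 25.1 CPM in females for fibroblast genes, and 38.5 and 12.2 CPM for endothelial genes. Female vehicle replicate 1, the female vehicle library with both glial genes, was the highest female vehicle library in both sums, at 173.6 and 44.3 CPM. The part of these cells in the difference between the sexes was not tested. Against vehicle at 15 weeks, again with every gene tested, S100b in males was -3.93 (edgeR adjusted p = 0.0649) and Sox10 -3.12 (adjusted p = 0.0880). Without male vehicle replicate 1 they were -2.71 (edgeR adjusted p = 0.304) and -1.94 (adjusted p = 0.397). In females S100b was -0.36 and Sox10 -2.11 with all libraries, and neither was called. Gfap, the filament protein, was counted in 9 of 10 vehicle libraries, 5 of 10 at 9 weeks and 6 of 10 at 15 weeks. Its log2 fold change at 9 weeks with the sexes averaged was -2.04 (SE 0.75, edgeR adjusted p = 0.0927), and -1.68 without male vehicle replicate 1 (adjusted p = 0.192).

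The wider lists of glial and neuronal genes were called at 9 weeks about as often as all genes, of which 12.0% were called with the sexes averaged. Of 18 other glial genes 11 were tested, and at 9 weeks with the sexes averaged 1 was called higher and 0 lower (median log2 fold change -0.047). That gene was Cnp, a myelin-associated enzyme (0.54, SE 0.11, edgeR adjusted p = 0.000790). Of 35 other neuronal genes 16 were tested, and at 9 weeks Tac1, the precursor of substance P, rose (1.42, SE 0.21, adjusted p = 1.9e-05) and Ddc, which makes dopamine and serotonin, fell (-0.50, SE 0.15, adjusted p = 0.0243). Tac1 rose in females (1.56, adjusted p = 0.00216) and in males (1.27, adjusted p = 0.00547, and 1.42 with adjusted p = 0.00505 without male vehicle replicate 1), and it fell from 9 to 15 weeks (-1.24, SE 0.20, adjusted p = 0.00346). Ddc and Tac1 also occur in enteroendocrine cells, whose 10 marker genes had 1 called higher and 0 lower at 9 weeks. The summed level of these 10 genes was 117 to 686 CPM in vehicle libraries (median 447 CPM). Without male vehicle replicate 1 it was 315 to 686 CPM (median 452 CPM). At 9 weeks it was 252 to 695 CPM (median 345 CPM). The part of enteroendocrine cells in the Tac1 values was not tested.

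In males at 9 weeks the neuronal filament protein Prph fell (-4.99, SE 1.17, edgeR adjusted p = 0.00700). Without male vehicle replicate 1 it was not called (-3.01, adjusted p = 0.0816). At 15 weeks in males 4 of 11 glial genes and 4 of 16 neuronal genes were called lower with all libraries, and 1 and 2 without that library. In this comparison 12.5% of all genes were called with all libraries, 7.67% as lower. The sodium channel Scn7a was -4.02 (SE 0.96, adjusted p = 0.00803) and remained called without that library (-3.44, adjusted p = 0.0327), as did the neurofilament Nefl (-2.05, SE 0.51, adjusted p = 0.00989, and -1.96 with adjusted p = 0.0317). The smooth muscle list had 10 of 10 called lower there with all libraries and 0 of 10 without male vehicle replicate 1, when 1 of the 10 had an unadjusted edgeR p under 0.05. In females at 15 weeks 0 of the 11 glial and 0 of the 16 neuronal genes were called by edgeR, with 1 and 0 at an unadjusted p under 0.05, where 0.117% of all genes were called. Of 6 neuregulin and endothelin signalling genes, which act on neural crest, 0 were called at 9 weeks and 0 at 15 weeks with the sexes averaged by edgeR, with 2 at an unadjusted p under 0.05 at each time. Nrg1, a neuregulin, was called higher at 9 weeks without male vehicle replicate 1 (1.58, adjusted p = 0.0295).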

How the data were processed

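The authors sequenced poly-A RNA of colon scrapes (TruSeq stranded kit) and, per the labels, trimmed reads with Trim Galore, aligned them with STAR to mm10 (GRCm38), counted genes with featureCounts and estimated abundance with StringTie. Duplicates were not removed. The deposited values used were raw gene counts, merged for the 30 libraries, and StringTie FPKM and TPM, 1 file per library, made by the authors. Strand and multi-mapping settings are not given in the sources used here.

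Counts were tested with edgeR 4.0.16 (R 4.3.3) on all 16261 genes that passed filterByExpr, with TMM scaling (factors 0.832 to 1.10), 1 coefficient for each of the 6 groups, glmQLFit and glmQLFTest, and Benjamini-Hochberg adjustment. A gene was called at an adjusted p under 0.05 and a log2 fold change beyond 0.4, as in the study. The study also left out genes under 1 FPKM in both compared groups, which was not applied in the main test. Libraries are named by group and by the replicate number of the labels, which do not say how replicates relate to cages or days, so p-values measure the spread between libraries. The procedure was tested on simulated data. Alternatives were DESeq2 1.42.0, median-of-ratios scaling, no low-count filter, the compared libraries only, a minimum mean FPKM of 1, a replicate block, smooth muscle level (mean log2 CPM of 10 genes) as a covariate, and leaving out each library. A fit without male vehicle replicate 1 and female 9-week replicate 5, and one without the filter and without male vehicle replicate 1, were added after seeing the data.

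The 8 genes and all gene lists were chosen with earlier results of these data known. All 8 are named, as are at most 4 genes of a list in a comparison, by lowest adjusted p among those called or, where none was called, the 2 with the lowest p, and the 2 genes most like a tested member. A few genes outside this rule (Nrg1 without a library, Gdnf, Vipr1 levels) were named after their values were seen. The values of 1 listed gene that the rule selects are not reported here. Columns of gene length and position in the tables held no measurement and were not tested.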

Additional observations from a re-analysis of the deposited data

Results flagged for a closer look

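Among 48 groups of 5 libraries, formed by 8 genes and 6 groups, 15 had a highest library whose distance to the next in CPM, over the range of the group, was beyond Dixon's critical value for 5 samples. On the log2 scale with a pseudocount of 0.1 CPM this held for 6 of them. That value flags about 1 in 20 groups when values are normally distributed. Counts near 0 are not, so the number flagged cannot be set against chance here.

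The 6 on both scales were groups in which 4 libraries had no count, where a library with any count is far from them in this sense. S100b stood at 0.141 CPM (4 counts) in female vehicle replicate 1, at 0.114 CPM (3 counts) in female 15-week replicate 5 and at 0.0805 CPM (2 counts) in male 15-week replicate 3. Sox10 stood at 0.0704 CPM (2 counts) in female vehicle replicate 1 and at 0.163 CPM (4 counts) in male 15-week replicate 2. Vip stood at 1.67 CPM (41 counts) in male 15-week replicate 2.

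Of the 9 beyond the value in CPM alone, 4 were in male vehicle replicate 1, the library rich in smooth muscle genes. There Vip was 10.3 CPM against 0.967 CPM in the next library, Uchl1 4.65 against 1.62 CPM, S100b 1.17 against 0.224 CPM and Sox10 1.17 against 0.299 CPM. In female 9-week replicate 3, second in smooth muscle genes, Vip was 2.07 CPM and Elavl4 0.632 CPM. Ngfr was 0.352 CPM in female vehicle replicate 1 and 1.02 CPM in male 15-week replicate 2, which also stood out for Vip and Sox10. Ret was 10.7 CPM in male 15-week replicate 5 against 3.18 CPM in the next library.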

How the results depend on the processing

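With the settings tried, 249 of 266 counts of called members stayed within 1.5 times the main count and 17 moved. In most comparisons the main count was 0, and 0 that stayed 0 was taken as unmoved, so this share says little about robustness. Of 1030 values of single members, 945 kept direction and side of the threshold, 67 changed sign, 12 gained and 6 lost the call. The cause was not tested. Ret at 9 weeks with the sexes averaged was called in every setting, at 1.59 to 1.83 with 1 library left out. Depth limits S100b, Sox10 and Gfap, which could not be tested under the filter. The compared libraries only could not be fitted for values that need other groups.

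By comparison, members called were 0 in place of 1 from 9 to 15 weeks with the smooth muscle covariate (0 to 1 with 1 library left out), and 0 to 1 at 15 weeks with the sexes averaged with 1 left out. In females at 9 weeks they were 1 with DESeq2, 2 without male vehicle replicate 1 and female 9-week replicate 5, and 0 to 1 with 1 left out. In males at 9 weeks they were 1 in place of 2 with the compared libraries only, with the replicate block, with the covariate and without both libraries, and 1 to 2 with 1 left out. In males at 15 weeks they were 0 to 2 with 1 left out. Between the sexes with vehicle they were 1 with DESeq2 and 0 to 1 with 1 left out, and for the male minus female response at 9 weeks 1 with DESeq2.

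Replicate numbers showed no pairing by the mean correlation of deviations, -0.030 for 75 same-numbered pairs (12 over 0.1) and 0.0067 for other pairs. No library was closest to its own number in every other group, a strict condition that by itself says little. With the replicate block Vip in males at 9 weeks was -5.22 (edgeR adjusted p = 0.0506), Uchl1 at 9 weeks with the sexes averaged was 0.17 in place of -0.045, Elavl4 at 15 weeks was -0.0086 in place of 0.086, and Ret in females at 15 weeks was 0.029. That Ret value, -0.0049 in the main test, was 0.0087 with DESeq2, 0.0094 with median-of-ratios scaling, 0.0076 without the filter and 0.011 with the compared libraries only.

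The smooth muscle covariate turned the sign of log2 fold changes of Uchl1 at 9 weeks (0.14 with the sexes averaged, -0.38 in females, 0.65 in males) and in males at 15 weeks (0.59). It also turned Ngfr at 15 weeks (0.71 averaged, 0.85 in males), from 9 to 15 weeks (0.15), in males at 9 weeks (0.51) and between the sexes with vehicle (-0.31), Vip at 15 weeks (1.70 averaged, 0.73 in males) and Elavl4 in males at 15 weeks (1.02). Without both libraries the averaged values were 0.40 for Uchl1 and 0.71 for Vip at 9 weeks and 0.070 for Ngfr and 0.94 for Vip at 15 weeks. In males they were 0.31 for Uchl1 at 9 weeks and 0.49 for Elavl4 at 15 weeks.

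With 1 library left out, values changed sign in these ranges. Averaged over the sexes, Ngfr was -0.049 to 0.72 at 9 weeks and -1.38 to 0.22 at 15 weeks, Elavl4 -0.20 to 0.35 at 15 weeks and Uchl1 -0.20 to 0.41 at 9 weeks. Vip was -1.29 to 0.61 at 9 weeks, -3.39 to 0.93 at 15 weeks and -2.74 to 0.96 from 9 to 15 weeks, and Ret -0.019 to 0.53 at 15 weeks. In females Uchl1 was -0.016 to 1.20 at 9 weeks, and at 15 weeks Ngfr was -0.62 to 1.5, Elavl4 -0.29 to 0.70 and Ret -0.13 to 0.18. In males Uchl1 was -0.58 to 0.31 at 9 weeks, Elavl4 -0.61 to 0.49 and Ret -0.042 to 1.05 at 15 weeks. Ret between the sexes at 15 weeks was -0.53 to 0.56, and its male minus female response -0.045 to 1.05.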
